A study of Mus musculus with 24 samples.

Results

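The genes of the calcineurin pathway were followed in mouse prefrontal cortex: the calcineurin subunit genes Ppp3ca, Ppp3cb and Ppp3r1, the regulator genes Rcan1, Rcan2 and Rcan3, and the transcription factor genes Nfatc1, Nfatc2, Nfatc3 and Nfatc4. They were taken by name from the 18240 genes of the deposited table as the pathway opposed by the DYRK1A kinase, and 10 of the 10 were present and passed the filter on low values. The mice were C57BL/6J, of both sexes, at postnatal day 40. The 24 bulk libraries form 4 arms of 6, with 3 females and 3 males each: wild-type mice given vehicle (WT vehicle), and Dyrk1a+/I48X heterozygotes given vehicle, fluoxetine or lithium (HT vehicle, HT fluoxetine, HT lithium). No WT mice on either drug are among the samples. Fluoxetine blocks serotonin reuptake, and lithium is a mood stabiliser that inhibits the kinase GSK3. Dose, route and length of treatment are not stated in the labels. Whether libraries come from different mice is not stated either, so the tests below take the spread between libraries as the error, and some of it may be technical.

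Calcineurin is a phosphatase switched on by calcium and calmodulin. It is built from a catalytic A subunit (Ppp3ca, Ppp3cb or Ppp3cc) and a regulatory B subunit (Ppp3r1), and it is abundant in forebrain neurons, where it acts in synaptic plasticity. Active calcineurin removes phosphates from NFATc transcription factors, which then enter the nucleus. DYRK1A and GSK3 put phosphates back and favour export of NFATc proteins. The RCAN proteins bind calcineurin and restrain it, and Rcan1 is itself a textbook NFAT target, through a start site inside the gene. Apart from the transcription of Rcan1, these steps take place at the level of protein activity and location, which mRNA counts do not measure.

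Rcan1 has several start sites: GENCODE M21 lists 7 transcripts, 5 of them protein-coding. RefSeq promoter windows cover 2 start regions, and both are shown because they differ in the motifs tied to calcium signalling. The sequences are the RefSeq windows of build GRCm38.p6, strand minus, 250 bases up to the start, with capitals marking GGAAAA, the core bound by NFAT, on either strand, and TGACGTCA, the cyclic AMP response element.
Rcan1 upstream window, chr16:92466170-92466419: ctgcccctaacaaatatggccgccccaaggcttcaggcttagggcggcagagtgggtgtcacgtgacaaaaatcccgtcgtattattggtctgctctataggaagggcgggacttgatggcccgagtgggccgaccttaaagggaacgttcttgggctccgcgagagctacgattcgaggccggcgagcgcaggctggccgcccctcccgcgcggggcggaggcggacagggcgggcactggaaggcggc
Rcan1 downstream window, chr16:92400079-92400328: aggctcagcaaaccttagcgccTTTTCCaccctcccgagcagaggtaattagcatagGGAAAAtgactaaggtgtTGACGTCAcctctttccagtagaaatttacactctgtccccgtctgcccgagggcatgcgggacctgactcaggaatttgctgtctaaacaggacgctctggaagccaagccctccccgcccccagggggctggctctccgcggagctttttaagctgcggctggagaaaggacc
Both strands were searched in the full 300-base windows, which reach 50 bases past the start, and the 2 motifs do not overlap each other. The downstream window held TTTTCC with its first base at -228 from the start. It held GGAAAA at -193, and the cyclic AMP response element at -175. The upstream window held neither motif. GGAAAA on either strand occurred in 7673 of 32851 RefSeq windows (23.4%) and TGACGTCA in 588 (1.79%). Windows were found for 8 of the 10 genes, 13 in all, of which 5 held GGAAAA on either strand and 1 held TGACGTCA. The deposited table gives a single value for a gene, so transcripts from all starts of Rcan1 are summed in everything that follows.

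Reads recovered from the deposited values, summed over the genes of the table, ran from 24133344 to 35940460 per library. Levels below are normalised read counts, as deposited. Dyrk1a, the gene that carries the allele, had a mean of 2200 ± 90.8 (SD, n = 6) in WT vehicle, 2355 ± 61.2 in HT vehicle, 2476 ± 97.5 in HT fluoxetine and 2447 ± 113 in HT lithium, and so was no lower under the HT label. Counts for the whole gene do not separate the alleles, so they do not check the genotype labels. Markers of excitatory cortical neurons were present in every library. Libraries nevertheless differed in tissue make-up. In the 6 highest, the mean log2 level of 9 olfactory bulb markers was 9.95 to 10.5, against 3.63 in the lowest library. The levels formed a range: HT fluoxetine female 3 came next at 9.01, then WT vehicle female 1 at 8.46 and HT lithium female 1 at 8.39. Lower down they stepped from 6.38 in HT vehicle male 1 to 5.55 in HT fluoxetine female 2. The cut at 6 was therefore a choice along this range, and cuts at 5 and 7 are given at the end. The 6 were WT vehicle female 2, HT vehicle female 2, HT vehicle male 3, HT fluoxetine female 1, HT fluoxetine male 1 and HT lithium male 1. Another 4 had the highest Drd2, a striatal marker (WT vehicle female 1 and HT vehicle male 1), or the highest Ttr, a choroid plexus marker (HT vehicle female 1 and HT fluoxetine female 2). Every lithium library and HT fluoxetine female 3 carry the batch label P40_L2 and the rest P40_L1, so lithium and batch can be separated only through that 1 fluoxetine library.

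The calcineurin and RCAN genes stood above the NFATc genes in reads per kilobase, with no background over all genes made for this scale. Exon length took in all annotated exons of a gene. The order and the shares depend on that length, and no other was tried. Per kilobase of exon, the mean normalised level over 24 libraries was 6079 ± 1092 (SD) for Ppp3r1, 2455 ± 437 for Ppp3ca, 1075 ± 100 for Rcan2, 863 ± 102 for Ppp3cb, 494 ± 50.1 for Rcan1 and 178 ± 40.2 for Rcan3. In 24 of 24 libraries each of these stood above the next. The NFATc genes followed at 31.7 ± 5.39 per kilobase for Nfatc2, 30.2 ± 3.51 for Nfatc3, 29.9 ± 11.7 for Nfatc1 and 13.0 ± 2.54 for Nfatc4. Nfatc2 was above Nfatc3 in 14 libraries and Nfatc3 above Nfatc1 in 16, so these 3 were not separated beyond their spread, whereas Nfatc4 was below Nfatc1 in 24 of 24. Among the catalytic subunit genes, per kilobase, Ppp3ca made up a median of 69.9%, Ppp3cb 24.3% and Ppp3cc 5.56%.

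**Figure D1:**
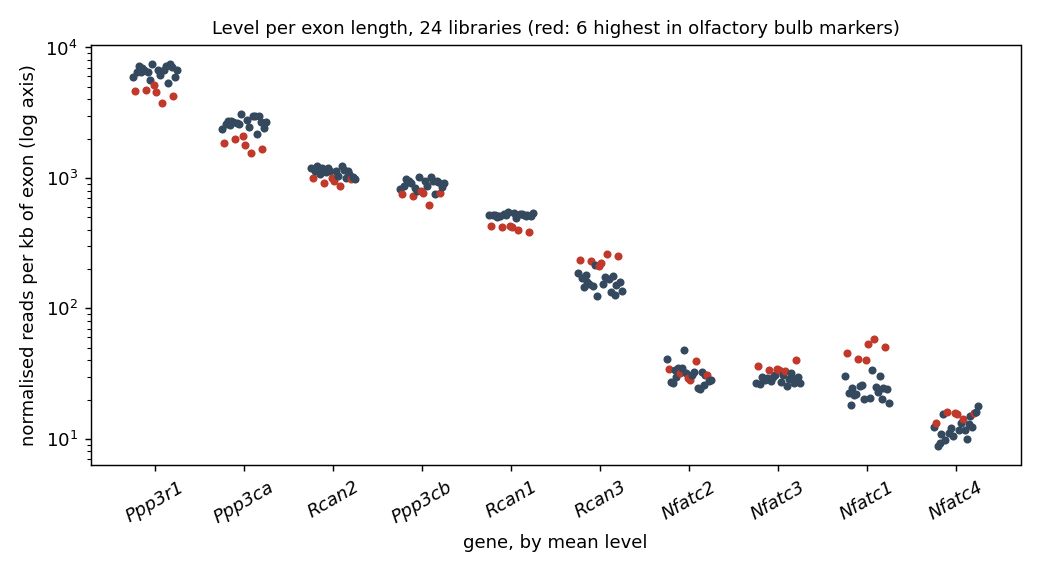
Normalised reads per kilobase of exon (log axis) for the 10 genes in order of their mean, 1 point per library, with the 6 libraries highest in olfactory bulb markers in red. The NFATc genes sit below the RCAN and calcineurin genes, and Nfatc2, Nfatc3 and Nfatc1 overlap.

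The catalytic subunit genes overlapped between all arms, and neither passed the test. Ppp3ca (ENSMUSG00000028161, chromosome 3, 136670124 to 136937727), the main catalytic subunit of forebrain, had a lowest, median and highest normalised count of 18455, 25449 and 27262 in WT vehicle, 19875, 26094 and 30760 in HT vehicle, 15374, 25940 and 29776 in HT fluoxetine, and 16556, 25390 and 29990 in HT lithium. The 4 arms overlapped almost wholly, and the lowest value of each belonged to a library high in olfactory bulb markers. The log2 fold change ± standard error was 0.03 ± 0.17 for HT vehicle against WT vehicle, -0.09 ± 0.17 for fluoxetine and -0.06 ± 0.17 for lithium against HT vehicle. Ppp3cb (ENSMUSG00000021816, chromosome 14, 20499364 to 20546573), the second catalytic subunit, ran from 6618 to 8667 in WT vehicle, 6354 to 8996 in HT vehicle, 5435 to 9018 in HT fluoxetine and 6671 to 8322 in HT lithium. Its arms overlapped as well, and its 3 log2 differences were -0.06 ± 0.11, 0.01 ± 0.11 and 0.02 ± 0.11 in the same order.

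Ppp3r1 (ENSMUSG00000033953, chromosome 11, 17159263 to 17200375), the calcium-binding regulatory subunit, had a lowest, median and highest count of 14970, 21008 and 23465 in WT vehicle, 15302, 19645 and 24122 in HT vehicle, 12009, 20697 and 23313 in HT fluoxetine, and 13738, 20335 and 24218 in HT lithium. No arm stood clear of another. The difference was -0.07 ± 0.17 for genotype, -0.07 ± 0.17 for fluoxetine and 0.01 ± 0.17 for lithium on the log2 scale. The regulatory and catalytic genes moved together from library to library: with group means removed, Pearson's r between Ppp3ca and Ppp3r1 was 0.986 over 24 libraries and 0.951 over the 18 without high bulb markers, a description of libraries that also share differences in tissue make-up.

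Rcan1 (ENSMUSG00000022951, chromosome 16, 92391953 to 92470867), the feedback inhibitor whose start regions are printed above, had nearly equal medians in the 4 arms. Its lowest, median and highest counts were 1310, 1595 and 1617 in WT vehicle, 1296, 1586 and 1702 in HT vehicle, 1220, 1577 and 1654 in HT fluoxetine, and 1186, 1595 and 1655 in HT lithium. The low values were again those of the 6 bulb-marker-high libraries. HT vehicle differed from WT vehicle by -0.03 ± 0.10 on the log2 scale, with a 95% interval of 0.851- to 1.13-fold. Without those 6 libraries the same difference was 0.03 ± 0.04, with an interval of 0.964- to 1.08-fold. Fluoxetine and lithium against HT vehicle gave -0.03 ± 0.10 and 0.01 ± 0.10 over all libraries, and -0.01 ± 0.04 and -0.02 ± 0.04 without the 6.

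Rcan2 (ENSMUSG00000039601, chromosome 17, 43801351 to 44039516), the most abundant RCAN gene here, had a lowest, median and highest count of 4380, 4938 and 5384 in WT vehicle, 3990, 4921 and 5182 in HT vehicle, 3819, 4716 and 5358 in HT fluoxetine, and 4287, 4405 and 4897 in HT lithium. Lithium had the lowest median, inside the range of the other arms. The lithium difference was -0.08 ± 0.08 against HT vehicle and -0.13 ± 0.08 against WT vehicle over all libraries. Without the 6 bulb-marker-high libraries these became -0.16 ± 0.05 and -0.16 ± 0.05, with limma adjusted p of 0.855 and 0.668, and neither passed the test. With the batch label as a term over all libraries, the Rcan2 differences were -0.06 ± 0.20 and -0.12 ± 0.20. Rcan3 (ENSMUSG00000059713, chromosome 4, 135412308 to 135433853) ran from 745 to 1209 in WT vehicle, 639 to 1179 in HT vehicle, 681 to 1327 in HT fluoxetine and 644 to 1290 in HT lithium, with differences of -0.01 ± 0.19 for genotype, 0.03 ± 0.19 for fluoxetine and -0.12 ± 0.19 for lithium.

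**Figure D2:**
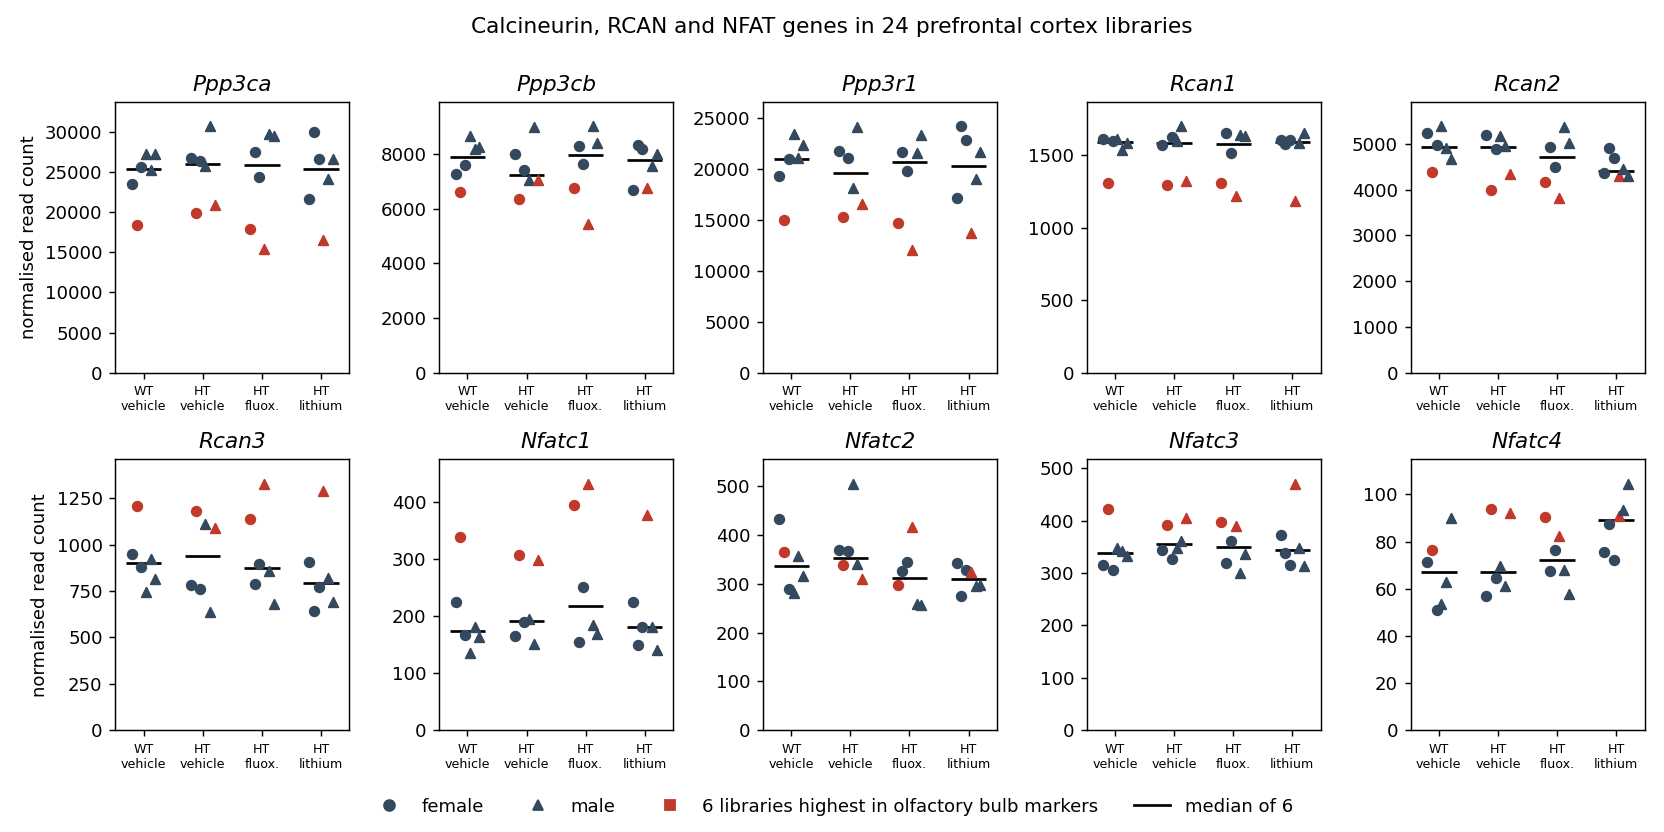
Normalised read count of each gene in each library, by arm, with circles for females, triangles for males, red for the 6 libraries highest in olfactory bulb markers and a line at the median of 6. The arms overlap for every gene, and the red points lie at the bottom for Ppp3ca, Ppp3r1 and Rcan1 and at the top for Nfatc1 and Nfatc3.

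Among the NFATc genes, Nfatc2 had the smallest p-value for fluoxetine against HT vehicle, and Nfatc4 for lithium against WT vehicle. Neither gene passed the test. Nfatc2 (ENSMUSG00000027544, chromosome 2, 168476410 to 168601657) had a lowest, median and highest count of 282, 336 and 432 in WT vehicle, 311, 354 and 505 in HT vehicle, 257, 312 and 416 in HT fluoxetine, and 275, 311 and 343 in HT lithium. Both drug arms had lower medians than HT vehicle, with overlapping ranges. The log2 difference from HT vehicle was -0.23 ± 0.13 for fluoxetine (limma adjusted p = 0.954) and -0.25 ± 0.13 for lithium (limma adjusted p = 1). These values turned on which libraries were counted. The highest and second highest counts, 505 and 432, belonged to HT vehicle male 1 and WT vehicle female 1, the libraries with the highest Drd2 at 1379 and 371. Without the 4 Drd2- or Ttr-high libraries the differences were -0.12 ± 0.14 and -0.13 ± 0.13, and without the 6 bulb-marker-high ones -0.41 ± 0.13 and -0.36 ± 0.13 (limma adjusted p = 0.278 and 0.901). With the batch label as a term, the lithium difference was -0.39 ± 0.32. Within batch P40_L1, fluoxetine gave -0.26 ± 0.16. The summed level of 9 of 9 striatal markers ran from 7536 to 20337 in WT vehicle, 7359 to 40434 in HT vehicle, 6658 to 13973 in HT fluoxetine and 7346 to 11438 in HT lithium, and its part in the Nfatc2 result was not tested.

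Nfatc4 (ENSMUSG00000023411, chromosome 14, 55823144 to 55833943), the least abundant of the 10, had a lowest, median and highest count of 51.1, 67.2 and 90.0 in WT vehicle, 56.9, 67.0 and 93.7 in HT vehicle, 57.9, 72.2 and 90.4 in HT fluoxetine, and 72.1, 89.1 and 104 in HT lithium. The lithium arm had the highest median, and 3 of its libraries lay below the top of the WT range. Lithium differed from WT vehicle by 0.38 ± 0.16, a 95% interval of 1.04- to 1.63-fold, with a limma adjusted p = 1. Against HT vehicle the difference was 0.27 ± 0.16 (limma adjusted p = 1). Without the 6 bulb-marker-high libraries, in which Nfatc4 was also high, they were 0.46 ± 0.15 and 0.48 ± 0.15 (limma adjusted p = 0.687 and 0.866). With a batch term the standard error grew to 0.38 (0.41 ± 0.38 against WT vehicle). Lithium and batch cannot be told apart here beyond that. Of the variation of Nfatc4 on the log2 scale, 25.1% lay between arms, the highest share of the 10 genes. The lowest was 1.4% for Ppp3ca, and the median over all genes tested was 8.97%. How many of all genes reach 25.1% was not counted.

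Nfatc1 (ENSMUSG00000033016) and Nfatc3 (ENSMUSG00000031902, chromosome 8, 106058840 to 106130537) did not separate the arms. Nfatc1, best known from T cells and heart valves, had a lowest, median and highest count of 135, 174 and 340 in WT vehicle, 151, 192 and 307 in HT vehicle, 154, 218 and 432 in HT fluoxetine, and 141, 181 and 377 in HT lithium. Its SD over the 24 libraries was 0.50 on the log2 scale, the widest of the 10, and its differences were 0.12 ± 0.29 for genotype, 0.21 ± 0.29 for fluoxetine and -0.09 ± 0.29 for lithium. Nfatc3 ran from 306 to 421, 326 to 405, 300 to 396 and 313 to 470 in the same order of arms, with differences of 0.08 ± 0.10, -0.05 ± 0.10 and -0.02 ± 0.10.

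Across the 10 genes, 0 were called at an adjusted p under 0.05 in any comparison between arms. The background was also near 0: limma called 0% of the 16825 genes tested for HT vehicle against WT vehicle, 0.0119% for fluoxetine and 0.0119% for lithium against HT vehicle, and 0% for either drug arm against WT vehicle. Comparisons that share the HT vehicle or WT vehicle libraries are not independent. At an unadjusted p under 0.05, 0 of the 10 genes passed in each of the first 4 and 1, Nfatc4, in lithium against WT vehicle, where 2.70%, 5.71%, 2.75%, 4.38% and 2.56% of all genes tested did. On the recovered reads, edgeR called 0 of the 10 in each comparison (background at most 0.0119%). DESeq2 also called 0, where it called 0% of all genes for genotype, 0.0951% for fluoxetine and 0.0178% for lithium against HT vehicle, and 0.107% and 0.0297% for fluoxetine and lithium against WT vehicle. The median log2 difference of the 10 was 0.01 for genotype, -0.03 for fluoxetine and -0.04 for lithium, beside -0.0024, -0.0013 and -0.00089 for all genes tested. The median standard error of the 10 was 0.14, above the 0.10 of all genes tested. Missing the threshold does not show equal levels: for Ppp3ca the genotype interval ran from 0.794- to 1.31-fold, and for Nfatc1 from 0.711- to 1.67-fold.

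**Figure D3:**
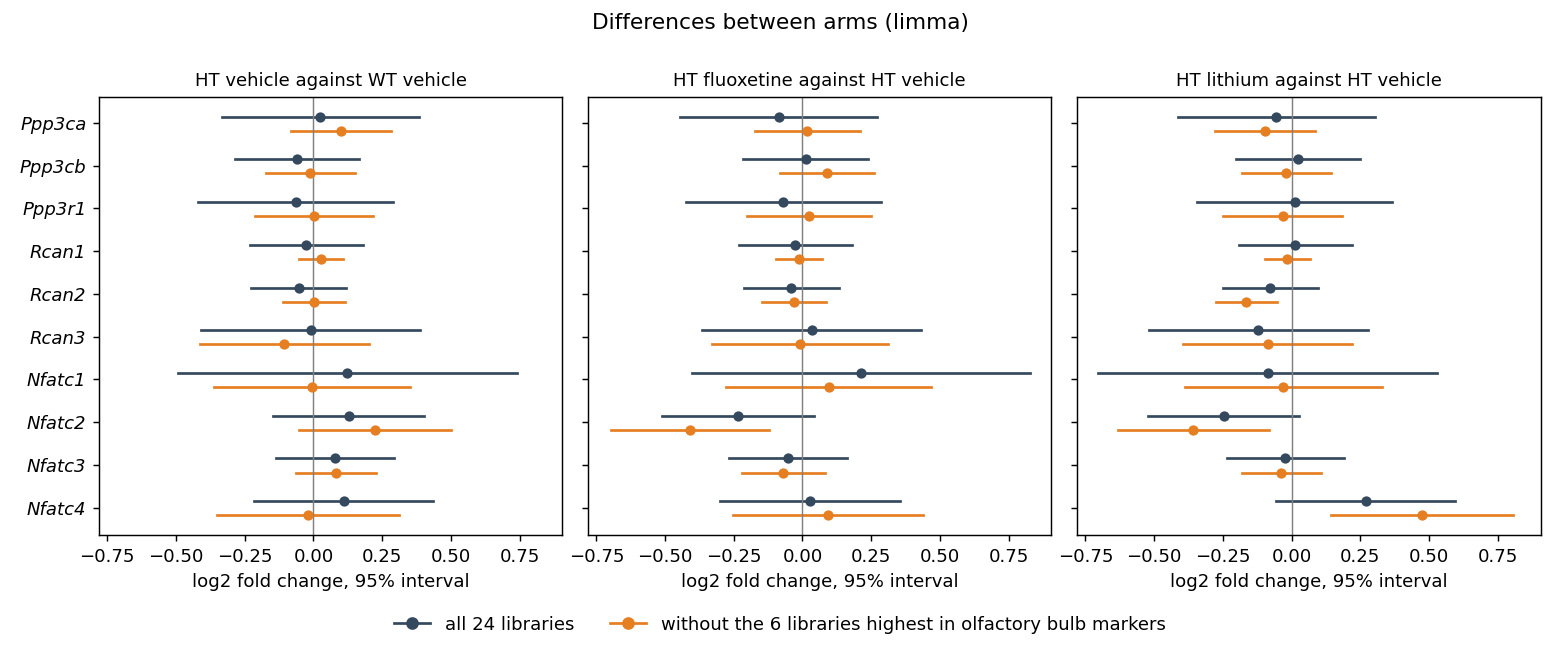
Log2 fold changes with 95% intervals (limma) for the 10 genes in 3 comparisons, over all 24 libraries (dark) and without the 6 libraries highest in olfactory bulb markers (orange). All dark intervals include 0. The orange ones for Nfatc2 under both drugs and for Rcan2 and Nfatc4 under lithium do not, and none of these passed adjustment over all genes. The share of all genes with such intervals in the orange fit is not given, so these are not set against a background.

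No difference between the sexes was called in these genes. In males against females the 10 log2 differences ran from -0.11 to 0.06, and limma called 0 of 10, against 0.0832% of all genes tested (0.0773% by edgeR and 0.119% by DESeq2, which also called 0 of 10). The difference between the sexes in the genotype, fluoxetine or lithium effect was called for 0 of 10 genes, with a background of 0% in each by limma and at most 0.00594% by DESeq2, and 0 of 10 had an unadjusted limma p under 0.05 in these 4 comparisons. Of all genes tested, 2.59% did for males against females and 2.17%, 1.07% and 1.63% for the 3 differences between the sexes, so 0 of 10 is near the background. The median standard error of that difference over the 10 was 0.29.

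Most of the variation in these genes lay between libraries of a group. Within-group variation made up 64.8% to 92.1% of the total on the log2 scale, beside a median of 76.1% over all genes tested. In the 6 libraries highest in olfactory bulb markers, which fall 1, 2, 2 and 1 to WT vehicle, HT vehicle, HT fluoxetine and HT lithium, 3 of the 10 genes were lower than in every one of the other 18 and 2 were higher. Of all genes tested, 9.91% were lower without overlap and 8.46% higher. The split was made on the marker genes and is described here without a test. In bulk tissue, fewer cells of a type and less RNA per cell cannot be told apart.

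Rcan1 ran from 1186 to 1325 (median 1302) in the 6 and from 1518 to 1702 (median 1605) in the 18, a ratio of medians of 0.811, with no library between the sets. Ppp3ca ran from 15374 to 20869 against 21662 to 30760 (ratio 0.683), and Ppp3r1 from 12009 to 16540 against 17129 to 24218 (ratio 0.687). Nfatc1 went the other way, 298 to 432 (median 358) against 135 to 251 (median 175), a ratio of 2.05, and Nfatc3 ran from 390 to 470 against 300 to 373 (ratio 1.188). The ranges of the other 5 overlapped, with ratios of 0.859 for Rcan2, 0.825 for Ppp3cb, 1.49 for Rcan3, 1.32 for Nfatc4 and 1.02 for Nfatc2. The share of log2 variation lying between the 6 and the 18 was 91.5% for Rcan1, 79.5% for Nfatc1 and 76.3% for Ppp3ca, against 1.09% for Nfatc2 and a median of 28.5% over all genes tested. Adding the seventh library, HT fluoxetine female 3, left only Rcan1 lower and Nfatc1 higher without overlap, with 5.33% of all genes lower and 5.77% higher.

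**Figure D4:**
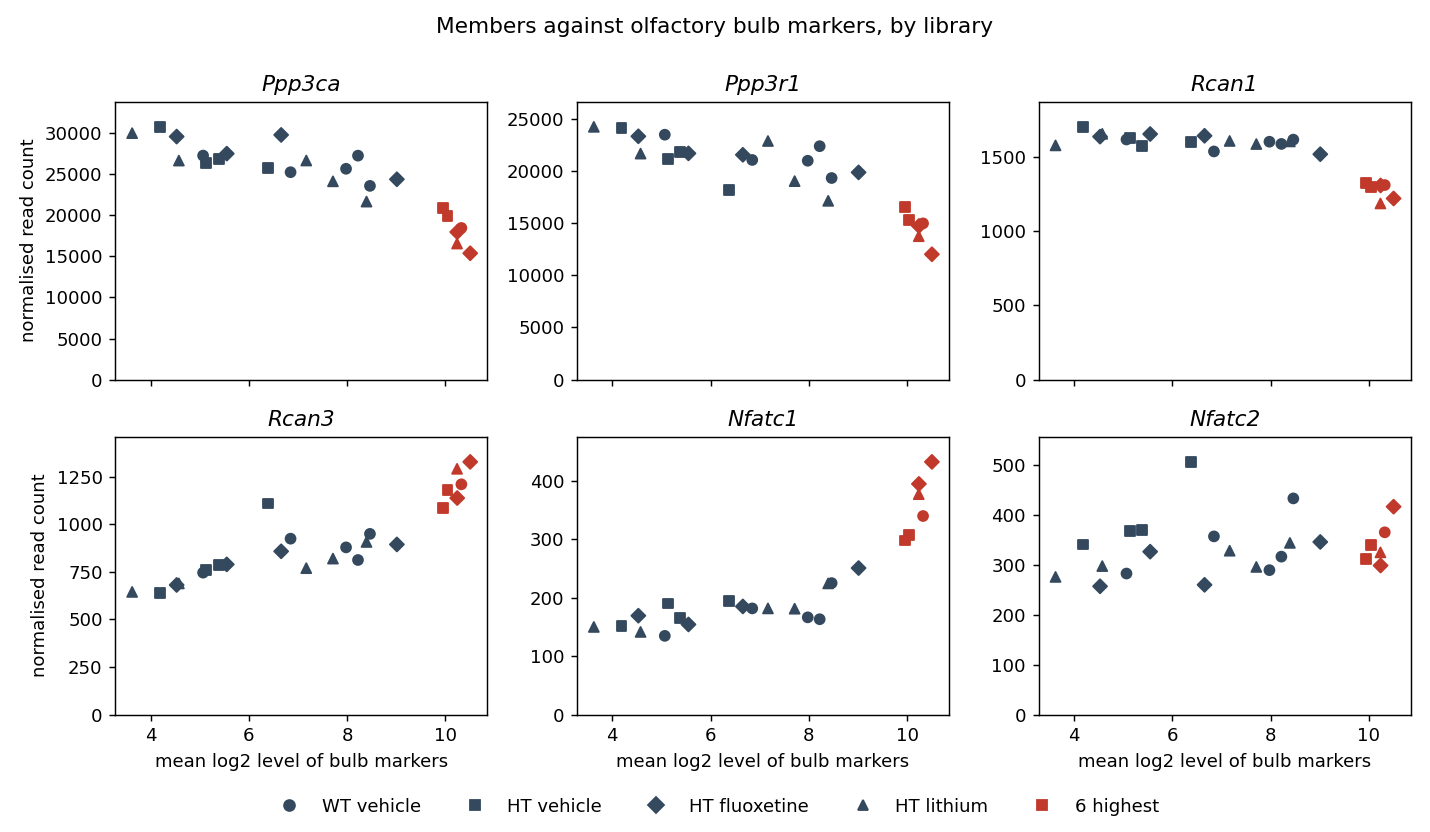
Normalised read count of 6 of the genes against the mean log2 level of 9 olfactory bulb markers in each library, with shapes for arms and red for the 6 highest. Rcan1 stays between 1518 and 1702 over the 18 and is lower in the 6, Ppp3ca and Ppp3r1 are lowest and Nfatc1 highest in the 6, and Nfatc2 shows no split.

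The make-up of the pathway differed in the same libraries. Ppp3cc, the third catalytic subunit gene, chosen here for its place in the enzyme, ran from 873 to 1052 in the 6 against 513 to 741 in the 18. Its share of catalytic subunit reads per kilobase was 9.73% to 13.6% in the 6 and 4.21% to 6.74% in the 18, while the Ppp3ca share was 59.7% to 66.3% against 68.8% to 72.5%. The Rcan3 share of RCAN reads was 13.0% to 17.0% against 6.91% to 11.3%. The Nfatc1 share of NFATc reads was 33.3% to 40.5% against 20.7% to 30.5%. Without overlap the Nfatc2 share was lower (21.6% to 27.2% against 28.3% to 41.4%), as was the Rcan1 share (23.8% to 26.9% against 27.0% to 32.5%). The Ppp3cb, Nfatc3, Nfatc4 and Rcan2 shares overlapped, as did the ratios of Ppp3r1 and of the RCAN genes to the catalytic subunits. Shares within a family depend on each other, and no background over all genes was made for them. The summed level of 10 of 10 excitatory cortical markers was 94779 to 125071 in the 6 and 150830 to 191966 in the 18, of 9 of 9 inhibitory markers 36915 to 47423 against 17485 to 30318, of 8 of 8 astrocyte markers 39757 to 45673 against 28893 to 36227, and of 9 of 9 striatal markers 6658 to 7884 against 8408 to 40434. These sums hide opposite directions. By their medians, 9 of 10 excitatory markers were lower in the 6. Among the inhibitory markers 5 were higher (Gad1, Gad2, Slc32a1, Dlx1 and Dlx2) and 4 lower (Pvalb, Sst, Vip and Lhx6, the cortical interneuron genes). Among the astrocyte markers 5 were higher and 3 lower (Fgfr3, Aldh1l1 and Sox9). Among the striatal markers 7 were lower and 2 higher (Penk and Adora2a). In the remaining lists, 8 of 8 activity genes were higher by median, Fos at 1917 against 903 but Arc nearly level at 6277 against 6209. Also higher were 6 of 6 meningeal fibroblast markers. By contrast, 8 of 8 mature oligodendrocyte and 4 of 4 precursor markers were lower. Higher and lower markers numbered 6 and 1 for choroid plexus, 5 and 3 for endothelial cells and pericytes, and 4 and 6 for microglia. The summed levels of these remaining lists overlapped between the 6 and the 18. The sum of 9 of 9 bulb markers was 16664 to 24108 against 208 to 8597, and Eomes and Tbx21, which define bulb projection neurons, were at 0 in some of the 18. The part of these cell types and of the activity genes in the gene differences was not tested.

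Genes most like the members were found by Pearson's r of log2 levels with the 8 group means removed, over 24 libraries and then over the 18, as a description: the libraries share the tissue differences above. Ppp3r1 was closest to Lrrc8b and Mmd (r of 0.994 and 0.993, and 0.978 and 0.976 over the 18), and Ppp3ca to Rab6a (0.992 and 0.938). Rcan1 was closest to Coro1a (0.99), and that value fell to 0.798 over the 18. Rcan2 was closest to Atp5g1 (0.935 and 0.775) and Rcan3 to Xrcc3 (0.984 and 0.965). Nfatc1 was closest to Fam20c (0.985 and 0.93), Nfatc3 to Mrgbp (0.947 and 0.837) and Nfatc4 to Cdc42ep4 (0.882 and 0.819). Nfatc2 was closest to Samd11, with 0.891 over 24 and 0.968 over the 18. Rcan1 and Ppp3ca correlated at 0.927 over 24 libraries and 0.422 over the 18, whereas Nfatc1 and Ppp3ca stood at -0.965 and -0.848.

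The wider pathway list held 55 genes, among them calcineurin anchors and inhibitors, NFAT kinases, calcium channels and calcineurin substrates, of which 52 were tested. limma called 0 of 52 in each comparison between arms, and 2, 2, 0, 3 and 5 had an unadjusted p under 0.05 in the order genotype, fluoxetine, lithium, fluoxetine against WT and lithium against WT. Of all 16825 genes, 455, 961, 463, 737 and 431 did. The median log2 difference of the 52 was -0.01, 0.00, 0.01, -0.02 and -0.01. For genotype the smallest p-values belonged to Dyrk1a (0.10 ± 0.04), Slc8a1, a sodium-calcium exchanger (-0.18 ± 0.08), and Dyrk1b, a related kinase (0.11 ± 0.06). For fluoxetine they belonged to Csnk1a1 and Csnk1e, casein kinases (0.13 ± 0.06 and 0.07 ± 0.04), and the survival gene Bcl2 (0.23 ± 0.11). For lithium they belonged to Tfeb, a lysosomal transcription factor dephosphorylated by calcineurin (0.18 ± 0.10), Elk1, another substrate (-0.08 ± 0.05), and Dyrk1a (0.05 ± 0.04). None of these passed the test. Ppp3cc gave -0.08 ± 0.21, 0.13 ± 0.21 and -0.01 ± 0.21 and Nfat5, the calcineurin-independent NFAT gene, -0.01 ± 0.08, 0.01 ± 0.08 and -0.03 ± 0.08 for genotype, fluoxetine and lithium. The 1 call by any tool was Dyrk1a in HT fluoxetine against WT vehicle, at 0.17 ± 0.04 with a DESeq2 adjusted p of 0.0103, where limma gave 0.17 ± 0.04 and an adjusted p of 0.31.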

How the data were processed

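Strand-specific polyadenylated RNA libraries (TruSeq kit, per the labels' protocols) from prefrontal cortex gave 1 table, deposited by the authors, of normalised read signal for 18240 genes in 24 libraries. GRCm38, DESeq2 1.19.11, Salmon 0.11.2 and R 3.6.0 appear in the list of the submitters' processing notes. In each deposited column, values were whole multiples of the value of a single read (100% within 0.01 of a whole read), so reads were recovered for the count tests; 1 read was worth 0.819 to 1.23. Summed over the genes of the table, recovered reads were 24133344 to 35940460 per library, which leaves out reads not assigned to these genes. GENCODE M21 named 18227 genes and gave coordinates and exon lengths.

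limma 3.58.1 in R 4.3.3 (intensity trend, 2-sided) was fitted to log2(value + 1) of 16825 genes, those averaging 10 or more, over 8 group means, with both sexes weighted equally and Benjamini-Hochberg adjustment over all genes tested. The pseudocount understates fold changes of low genes. edgeR 4.0.16 and DESeq2 1.42.0 on recovered reads, other pseudocounts, filters, scalings, batch terms and left-out libraries were alternatives. The smallest chi-square per gene between libraries was 4.53, so none were duplicates. The tests were also run on simulated counts with known changes put into HT vehicle against WT vehicle. Genes were drawn independently there, so the simulation lacked the tissue differences that these libraries share. All 10 genes are named, with Ppp3cc, Nfat5, Dyrk1a, the 3 wider-list genes of smallest p in the first 3 comparisons, and the nearest genes by correlation, some of which are not reported here. The genes and lists were chosen with earlier results of these data known.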

Additional observations from a re-analysis of the deposited data

Results flagged for a closer look

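Of 40 sets of 6 libraries (10 genes in 4 arms), 5 held a library whose gap to its nearest neighbour exceeded, as a share of the arm's range, Dixon's 95% critical value for 6 samples. That is 12.5%, beside 9.80% of the 67300 such sets over all genes tested; chance marks about 1 in 20. Rcan1 was low in WT vehicle female 2 (1310, gap 0.737 of the range) and in HT lithium male 1 (1186, gap 0.834). Nfatc1 was high in HT lithium male 1 (377, gap 0.648) and Nfatc3 in WT vehicle female 2 (421, gap 0.643). These 4 values come from libraries among the 6 highest in olfactory bulb markers. Nfatc2 was high in HT vehicle male 1 (505, gap 0.697), which has the highest Drd2 of the 24.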

How the results depend on the processing

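The number of the 10 genes called was 0 in every comparison under each alternative run, leaving out single libraries included (0 to 0). Among 1320 fold changes under alternatives, 600 of them with 1 library left out, 123 changed sign, each within the standard error in 1 fit or the other. Taking the 7 libraries highest in olfactory bulb markers, chosen after seeing the data, left 1 gene higher and 1 lower without overlap, in place of 2 and 3, with a background of 5.77% and 5.33% in place of 8.46% and 9.91%; HT fluoxetine female 3 is the added library. With the 5 highest, Rcan3 and Nfatc1 were higher and Rcan1, Ppp3ca and Ppp3r1 lower (background 4.64% and 4.27%). With values centred on each library's median, Rcan2 was also lower, and the background moved to 6.25% higher and 13.7% lower. Without the 4 Drd2- or Ttr-high libraries, Rcan3 was also higher (background 9.67% higher and 10.8% lower). Calls over all genes moved between tools: for fluoxetine against HT vehicle limma called 2, edgeR 2 and DESeq2 16, for lithium 2, 0 and 3, for fluoxetine against WT vehicle 0, 0 and 18, and for lithium against WT vehicle 0, 0 and 5. A replicate block called 0 of the 10. Replicate numbers carry no stated pairing: deviations of same-numbered libraries correlated at a median of -0.018, and 11 of 24 libraries correlated best with their own number.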
